A study of Mus musculus with 12 samples.

Results

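The genes described are 10 members of the NF-kB pathway in oligodendrocytes sorted from the mouse brain: the DNA-binding subunits Nfkb1, Nfkb2, Rel, Rela and Relb, the inhibitor Nfkbia, the nuclear regulator Nfkbiz, the feedback genes Tnfaip3 and Birc3, and the kinase gene Ikbke. They were chosen by gene symbol from the raw count table, which held 55376 symbols, and all 10 were found there once each. All 10 also passed the filter on low counts, which kept 17716 genes with at least 1 CPM (the counts-per-million unit, with counts scaled to the depth of the library) in at least 4 of the 12 samples, and none of the 10 passed only through samples of mutants. RNA came from live O1+ CD45- cells of mice at postnatal day 40 on a C57BL/6 background, in 4 samples of each of 3 genotypes, and each sample pooled 2 brains.

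WT mice carried no mutant allele by their labels. Cnp-Cre:Jab1flfl mice, written here as Cnp-Cre Jab1fl/fl, lost Jab1, the gene Cops5, in cells that express Cre from the Cnp locus, which is active in oligodendrocytes and their late progenitors and also in Schwann cells. The double mutants, labelled p21-/- Cnp-Cre:Jab1flfl, in addition lacked p21, the gene Cdkn1a. There was no group that lacked p21 alone, so an effect of p21 without the Jab1 deletion could not be measured. Both mutant genotypes were compared with the same 4 WT samples, so those comparisons are not independent of each other.

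NF-kB is a family of dimers of Rel proteins. RELA, c-REL and RELB carry an activation domain, whereas p50 and p52, made from the products of Nfkb1 and Nfkb2, do not. In resting cells IκBα, the product of Nfkbia, holds the dimers in the cytoplasm. Signals from receptors such as those of TNF activate the IκB kinases, IκBα is tagged with ubiquitin by a cullin-RING ligase and degraded, and the dimers enter the nucleus. JAB1 is the catalytic subunit of the COP9 signalosome, which removes the modifier NEDD8 from cullins. Several of the genes studied are themselves induced by NF-kB, among them Nfkbia and Tnfaip3, which then limit the response. In the brain the pathway is best known in microglia and other immune cells.

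The promoters of the 4 members with the smallest p-values between Cnp-Cre Jab1fl/fl and WT are shown because members of the family are known to be targets of their own pathway. RefSeq windows on GRCm38.p6 were at hand for 7 of the 10 members, Nfkb2, Rel, Rela, Nfkbia, Tnfaip3, Birc3 and Ikbke. Each window held 250 bases before a transcription start and 50 after it, and it was searched on both strands for the κB consensus, a partly degenerate motif of 10 bases. The 250 bases before the start are given 5′ to 3′ on the strand of the gene, and capitals mark matches to the motif.
Rel, chr11:23770970-23771219, minus strand: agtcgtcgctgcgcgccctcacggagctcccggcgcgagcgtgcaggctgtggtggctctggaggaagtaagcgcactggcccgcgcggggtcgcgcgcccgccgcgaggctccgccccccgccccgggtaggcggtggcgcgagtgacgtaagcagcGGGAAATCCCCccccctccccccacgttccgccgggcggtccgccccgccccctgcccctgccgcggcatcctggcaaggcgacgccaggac
Nfkbia, chr12:55492648-55492897, minus strand: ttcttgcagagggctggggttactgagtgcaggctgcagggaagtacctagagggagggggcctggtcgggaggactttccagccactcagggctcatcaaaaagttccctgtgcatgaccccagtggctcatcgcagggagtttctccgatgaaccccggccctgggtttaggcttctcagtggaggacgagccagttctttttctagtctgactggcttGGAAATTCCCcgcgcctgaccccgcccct
Tnfaip3, chr10:19015411-19015660, minus strand: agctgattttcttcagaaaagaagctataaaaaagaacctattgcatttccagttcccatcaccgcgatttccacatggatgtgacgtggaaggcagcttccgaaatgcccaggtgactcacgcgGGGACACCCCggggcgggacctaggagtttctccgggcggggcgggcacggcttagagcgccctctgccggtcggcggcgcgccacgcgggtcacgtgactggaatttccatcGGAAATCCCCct
Birc3, chr9:7873171-7873420, minus strand: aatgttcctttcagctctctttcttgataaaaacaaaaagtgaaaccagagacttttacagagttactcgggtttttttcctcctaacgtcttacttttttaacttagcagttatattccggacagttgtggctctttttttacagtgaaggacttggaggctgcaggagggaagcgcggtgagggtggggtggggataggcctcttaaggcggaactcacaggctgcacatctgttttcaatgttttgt

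In Rel, overlapping matches began 92 and 91 bases before the start and made up a run of capitals. Nfkbia had 1 match, which began 29 bases before the start. Tnfaip3 had matches that began 125 and 12 bases before the start of its first window, and none in its second window. These letters were not found in the window of Birc3, nor in those of Rela and Ikbke, whereas all 3 windows of Nfkb2 held a match. Thus 4 of the 7 members had a match, where 9.55% of the 27025 genes with a window did and 8.46% of the 32851 windows did. A match describes the sequence only, and binding was not measured in these samples.

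The 10 genes lie on 9 mouse chromosomes, with Nfkb2 and Rela both on chromosome 19. In GRCm38 by GENCODE M21, Birc3 spans chr9:7848699-7873186 in 9 exon blocks, Rel spans chr11:23736847-23770970 in 10, Nfkbia spans chr12:55489410-55492647 in 6 and Tnfaip3 spans chr10:19000910-19015657 in 9, and the reads counted for a gene were those in its exons. Whether reads were counted by strand is not stated. Of the exon bases of Nfkb2, 12.6% overlap the antisense gene AC114539.1 and 7.08% overlap Psd, and of those of Ikbke 1.21% and 0.604% overlap the antisense genes Gm28914 and Gm28913, so the values of Nfkb2 and Ikbke are less certain than those of the other members.

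Libraries held 61485556 to 153495112 counts. The mean of Cops5 was 103 CPM in WT, 58.6 in double mutants and 66.9 in Cnp-Cre Jab1fl/fl, and neither difference from WT passed the test (edgeR quasi-likelihood test with Benjamini-Hochberg adjustment, adjusted p = 0.424 and 0.349). Counts per gene do not separate the deleted exons from the others, and for the same reason Cdkn1a, at 64.7 to 103.3 CPM in the double mutants, does not check their genotype. Cdkn1a was 16 to 85.4 CPM in WT and 378.8 to 636.5 CPM in Cnp-Cre Jab1fl/fl. By qPCR the authors found less Cops5 in sorted O1+ cells of Cnp-Cre Jab1fl/fl than of WT, and by Western blot less JAB1 in optic nerves. They could not detect Cdkn1a by qPCR in sorted oligodendrocytes of double mutants. The markers of mature oligodendrocytes, 11 genes such as Mbp and Mog, summed to 23960 to 54210 CPM in WT, 10690 to 29790 in double mutants and 6470 to 29290 in Cnp-Cre Jab1fl/fl. Of these 11, edgeR called 9 lower in Cnp-Cre Jab1fl/fl than in WT, where 2.46% of all genes were. In double mutants it called 0 lower, where 0.0169% of all genes were. There 10 of the 11 had a log2 fold change below 0, where 50% of all genes were above 0. Of the 11, 6 had an unadjusted edgeR p below 0.05 there, as did 12.4% of all genes in either direction. Mbp, the 1 marker with a log2 fold change above 0, made up much of the sums, with a mean of 10800 CPM in WT and 13040 in Cnp-Cre Jab1fl/fl. Cnp, from whose locus Cre is expressed in both mutant genotypes, was among the 9 called lower. Its mean was 7528 CPM in WT, 1505 in double mutants and 780.8 in Cnp-Cre Jab1fl/fl, and the part of the Cre allele in this was not tested. The sorted cells excluded CD45, yet the 20 microglial markers summed to 150.4 to 337.2 CPM in WT, 478.3 to 20670 in double mutants and 1286 to 3091 in Cnp-Cre Jab1fl/fl, with none of them at 0 in all samples of a genotype. Double mutant replicate 3 stood apart with 20670 CPM, and the other double mutants had 478.3, 1049 and 2307. Ptprc, the gene of CD45 and among the 20, was 0 to 1.53 CPM in WT, 3.11 to 101.1 in double mutants and 31.7 to 107.2 in Cnp-Cre Jab1fl/fl. On reanalysis of the sorted cells the authors saw no overt contamination with CD45+ cells. They added that a small share of other cells remained possible. In bulk samples, a change in the number of cells of a type and a change in RNA per cell cannot be told apart.

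At a given exon length, Nfkbia and Rela dominated the members in every genotype. Levels between genes were compared as CPM per kilobase of exon. In WT, Nfkbia had 91.1 ± 55.3 (SD, n = 4) and Rela 34.2 ± 11.2 CPM per kilobase. The other members had means of 4.57 for Relb, 3.54 for Nfkb1, 2.7 for Ikbke, 2.26 for Nfkbiz, 1.25 for Nfkb2, 0.6 for Birc3, 0.395 for Rel and 0.362 for Tnfaip3. All samples of Nfkbia lay above all samples of Rela, and all samples of Rela above all samples of Relb, in each of the 3 genotypes. Below Rela, no neighbours in the order were separated by their samples in any genotype.

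In Cnp-Cre Jab1fl/fl the order began in the same way, with Nfkbia at 249 ± 117, Rela at 29.1 ± 11.2, Relb at 6.32 ± 2.6 and Nfkb1 at 4.43 ± 1.51 CPM per kilobase. Birc3, the eighth member in WT, was the fifth there with 3.98 ± 3.21, next to Ikbke with 3.88 ± 1.26, and these values did not differ beyond their spread. In double mutants Nfkbia had 226 ± 103 and Rela 37.1 ± 3.29, Relb and Nfkb1 both had a mean of 6.09, and Rel was last with 0.696 ± 0.384.

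Among the 5 DNA-binding subunits, Rela, the activating partner of the classical p50 dimer, made up most of the transcripts per length. Its share of the summed CPM per kilobase of the 5 was 77.7, 75.9, 80.6 and 76% in the 4 WT samples, 75.8, 73.1, 52.1 and 56.4% in Cnp-Cre Jab1fl/fl, whereas double mutants had 78.9, 78.8, 59.4 and 67.1%. Each mutant genotype thus had samples near the WT share and samples well below it. The share of Rel was 0.979 ± 0.627% in WT, 1.34 ± 0.755% in double mutants and 4.02 ± 2.61% in Cnp-Cre Jab1fl/fl, and that of Relb 10.2 ± 1.53%, 11.4 ± 5.39% and 15.1 ± 6.65%. No test was run on the shares.

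**Figure D1:**
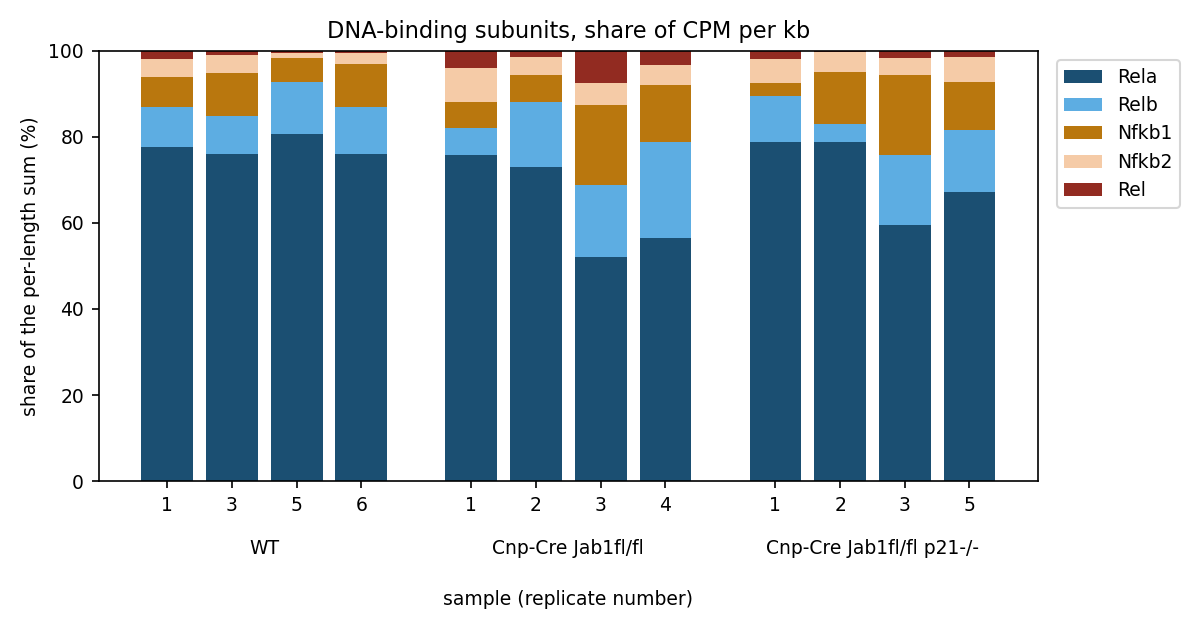
Each bar is a sample, named by its replicate number, and shows the share (%) of each DNA-binding subunit in the summed CPM per kilobase of the 5. Rela takes 75.9 to 80.6% of the sum in WT and as little as 52.1% in Cnp-Cre Jab1fl/fl replicate 3.

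Whether the deletion of Jab1 changed the pathway was addressed by comparing Cnp-Cre Jab1fl/fl with WT. Of the 10 members, Birc3 alone passed the test of edgeR's quasi-likelihood fit at an adjusted p below 0.05, and it was higher. Of all genes tested, 5.19% were called higher and 2.46% lower, so 1 of 10 members is close to the background. At an unadjusted p below 0.05, 4 of 10 members were higher, Birc3, Rel, Nfkbia and Tnfaip3, as compared with 13.2% of all genes. In 9 of 10 members the log2 fold change was above 0, as for 51% of all genes, and the median was 0.85, where that of all genes was 0.02. The WT and mutant samples did not overlap for 3 members, Rel, Tnfaip3 and Birc3, all higher, as compared with 9.88% of all genes.

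Birc3 encodes cIAP2, a ubiquitin ligase of the TNF receptor complex that curbs the noncanonical branch of the pathway. Its level was 4.03, 2.77, 2.41 and 0.975 CPM in WT and 35.8, 5.33, 17.5 and 8.99 CPM in Cnp-Cre Jab1fl/fl. All mutant samples were higher than all WT samples, but the lowest mutant sample, replicate 2, was close to the highest WT sample. The log2 fold change was 2.73 ± 0.71 (SE) with an adjusted p of 0.0392. Leaving out replicate 2 or 4 of the mutants kept this call (adjusted p = 0.0176 and 0.048). The call was lost without WT replicate 1, 3, 5 or 6 (adjusted p = 0.0593, 0.0932, 0.101 and 0.088) and without mutant replicate 1 or 3 (adjusted p = 0.131 and 0.0819), with log2 fold changes of 2.06 to 3.04 over all 8 omissions.

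Rel encodes c-REL, the subunit best known from lymphoid and myeloid cells. Its level was 4.36, 3.74, 2.31 and 1.4 CPM in WT and 15.8, 4.79, 17.6 and 10.2 CPM in Cnp-Cre Jab1fl/fl. Here too no sample overlapped and mutant replicate 2 was the lowest, just above the highest WT sample. The log2 fold change was 2.04 ± 0.63 (SE) with an adjusted p of 0.0751 by edgeR, so Rel was not called in this comparison.

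Nfkbia, which encodes IκBα, was the most abundant member. Its level was 273.2, 107, 112.3 and 82.6 CPM in WT and 458.8, 185.4, 314.7 and 612 CPM in Cnp-Cre Jab1fl/fl. WT replicate 1 was above mutant replicate 2, and otherwise the mutant samples were higher. The log2 fold change was 1.45 ± 0.47 (SE) with an adjusted p of 0.0854 by edgeR. Without WT replicate 1 or without mutant replicate 2 the adjusted p was 0.0344 and 0.0383 in the same test.

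Tnfaip3 encodes A20, which edits ubiquitin chains and ends the signal to the IκB kinases. Its level was 2.67, 1.78, 2.21 and 0 CPM in WT and 20.7, 5.39, 3.34 and 14.7 CPM in Cnp-Cre Jab1fl/fl. The sample at 0 was WT replicate 6, in which a count of 0 allows up to 0.0325 CPM, counting error only. The log2 fold change was 2.73 ± 1.22 (SE) with an adjusted p of 0.212 by edgeR, the same size as in Birc3 with a larger error. The estimate depended on the method, since limma-voom gave 5.06 with an adjusted p of 0.0856.

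The call of single members depended on the test. DESeq2 on the same 8 samples called 3 members higher, Rel, Nfkbia and Birc3 (adjusted p = 0.0114, 0.00931 and 0.000889), where it called 9.61% of all genes higher. On counts simulated for this comparison DESeq2 made more false calls than its threshold allows, whereas edgeR and limma-voom kept to it. Those counts were drawn with the spread that edgeR estimated for each gene. They therefore do not decide whether the DESeq2 calls of Rel, Nfkbia and Birc3 hold in the real samples. The same 3 were called by limma-voom with sample weights, which called 7.38% of all genes higher. In edgeR no member was called without the filter on low counts or with all 12 samples in the fit, where the adjusted p of Birc3 was 0.0746 and 0.058, and these fits called 2.5% and 5.31% of all genes.

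The other 6 members did not pass the test at an unadjusted p below 0.05. Nfkb2, whose p100 precursor is processed in the noncanonical branch, was 5.57, 9.04, 2.8 and 3.67 CPM in WT and 18.1, 9.01, 6.48 and 7.98 CPM in Cnp-Cre Jab1fl/fl, with a log2 fold change of 0.98 ± 0.59 (SE). Nfkbiz, the nuclear regulator IκBζ, had a log2 fold change of 0.72 ± 0.51. Ikbke, the kinase IKKε, had 0.53 ± 0.52, Relb, the partner of p52, had 0.47 ± 0.49 and Nfkb1 had 0.33 ± 0.42. Rela was the only member below 0, with −0.23 ± 0.36 on the log2 scale and overlapping samples, at 66.2 to 130.9 CPM in WT and 44.1 to 110.3 CPM in Cnp-Cre Jab1fl/fl.

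**Figure D2:**
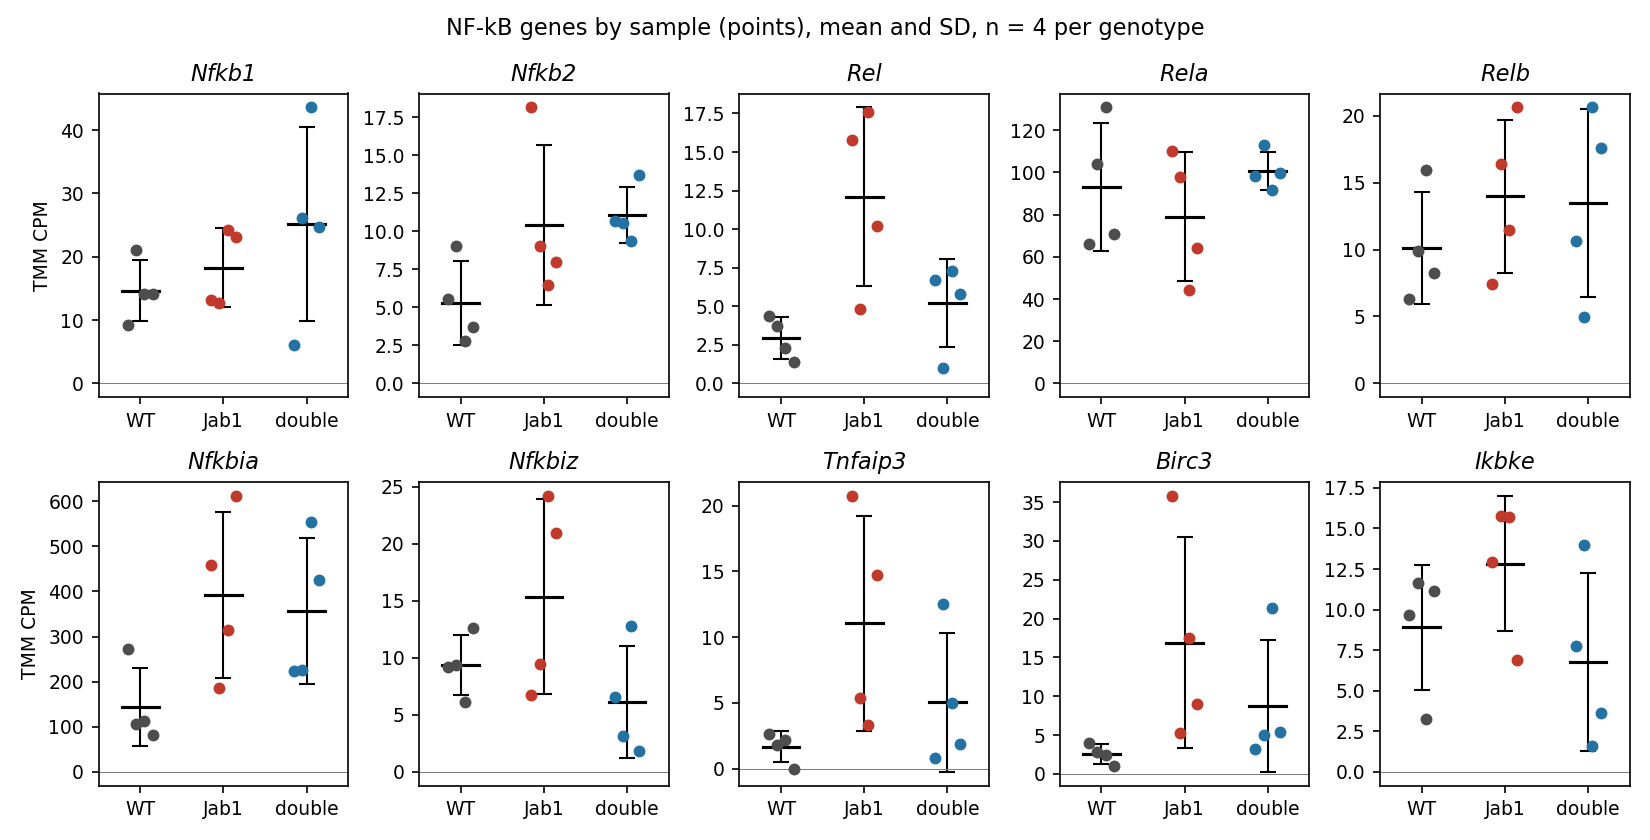
Each panel plots the level of a member (CPM with TMM factors, linear axis) in each sample as a point, with the mean (bar) and SD (whiskers) of the 4 samples of WT, Cnp-Cre Jab1fl/fl (Jab1) and double mutants (double). Rel, Tnfaip3 and Birc3 show no overlap between WT and Cnp-Cre Jab1fl/fl, whereas Rela overlaps throughout.

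The comparison of double mutants with WT asked what remained of these changes when p21 was also missing. None of the 10 members was called by edgeR, where 0.175% of all genes were called higher and 0.0169% lower, and DESeq2 and limma-voom called none either, where they called 4.94% and 0.265% of all genes. At an unadjusted p below 0.05, 2 of 10 members were higher, Nfkbia and Birc3, as compared with 7.82% of all genes. The log2 fold change was above 0 in 8 of 10 members and in 50% of all genes, and the median was 0.79, where that of all genes was 6.86e-05. The samples did not overlap for 1 member, Nfkb2, which was higher, as compared with 4.52% of all genes.

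In double mutants Nfkbia was 223.4, 225.7, 554.3 and 425.5 CPM, so that only the first pair of replicates, 1 and 2, lay below the highest WT sample. Its log2 fold change against WT was 1.31 ± 0.46 (SE) with an adjusted p of 0.279 by edgeR. Birc3 was 3.18, 5.05, 21.4 and 5.34 CPM, and replicate 3, the library with the most microglial marker RNA, stood apart from the others. The log2 fold change of Birc3 was 1.78 ± 0.77 with an adjusted p of 0.373 by edgeR, and it was 0.825 without replicate 3. Nfkb2 was 10.6, 10.5, 9.36 and 13.7 CPM, all above the highest WT sample of 9.04, with a log2 fold change of 1.06 ± 0.51 and an adjusted p of 0.437 by edgeR.

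Rel and Tnfaip3, both low in WT, were uneven among the double mutants. Rel was 6.73, 0.998, 7.27 and 5.79 CPM, with replicate 2 below every WT sample. Tnfaip3 was 0.833, 12.5, 4.98 and 1.85 CPM, and here replicate 2 was the highest. Their log2 fold changes against WT were 0.81 ± 0.75 and 1.59 ± 1.36 (SE). Nfkb1 ranged from 6.06 to 43.6 CPM and had a log2 fold change of 0.78 ± 0.54, Relb had 0.4 ± 0.53 and Rela 0.1 ± 0.29. Nfkbiz and Ikbke were the members below 0, with −0.62 ± 0.64 and −0.42 ± 0.7 on the log2 scale.

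Double mutants were then compared with Cnp-Cre Jab1fl/fl directly. No member passed the test (edgeR), and 0 of 10 had an unadjusted p below 0.05, where edgeR called 0% of all genes and 5% had an unadjusted p below 0.05. DESeq2 on the 8 samples called none of the 10 and 0.499% of all genes. The samples of the genotypes overlapped for all 10 members. Of the log2 fold changes 7 of 10 were below 0, as for 48.7% of all genes, with a median of −0.53 and a range of −1.33 to 0.46, where the median of all genes was 0.02.

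Nfkbiz was furthest below 0, with −1.33 ± 0.71 (SE) on the log2 scale, and its level was 6.6, 3.18, 12.8 and 1.82 CPM in double mutants as compared with 6.72, 9.46, 24.2 and 21 CPM in Cnp-Cre Jab1fl/fl. Rel followed with −1.22 ± 0.71, Tnfaip3 with −1.13 ± 0.91, Birc3 with −0.95 ± 0.76 and Ikbke with −0.93 ± 0.69. Nfkbia was −0.14 ± 0.44, Relb −0.06 ± 0.55, Nfkb2 0.09 ± 0.5, Rela 0.35 ± 0.33 and Nfkb1 0.46 ± 0.55. The errors are large enough that neither a return to the WT level nor the lack of one was shown for any of the members. Without double mutant replicate 3 the log2 fold changes of Nfkbiz and Birc3 were −1.95 and −1.87, with unadjusted edgeR p-values of 0.0235 and 0.0278 over 7 samples and adjusted p-values of 0.937 and 0.946.

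**Figure D3:**
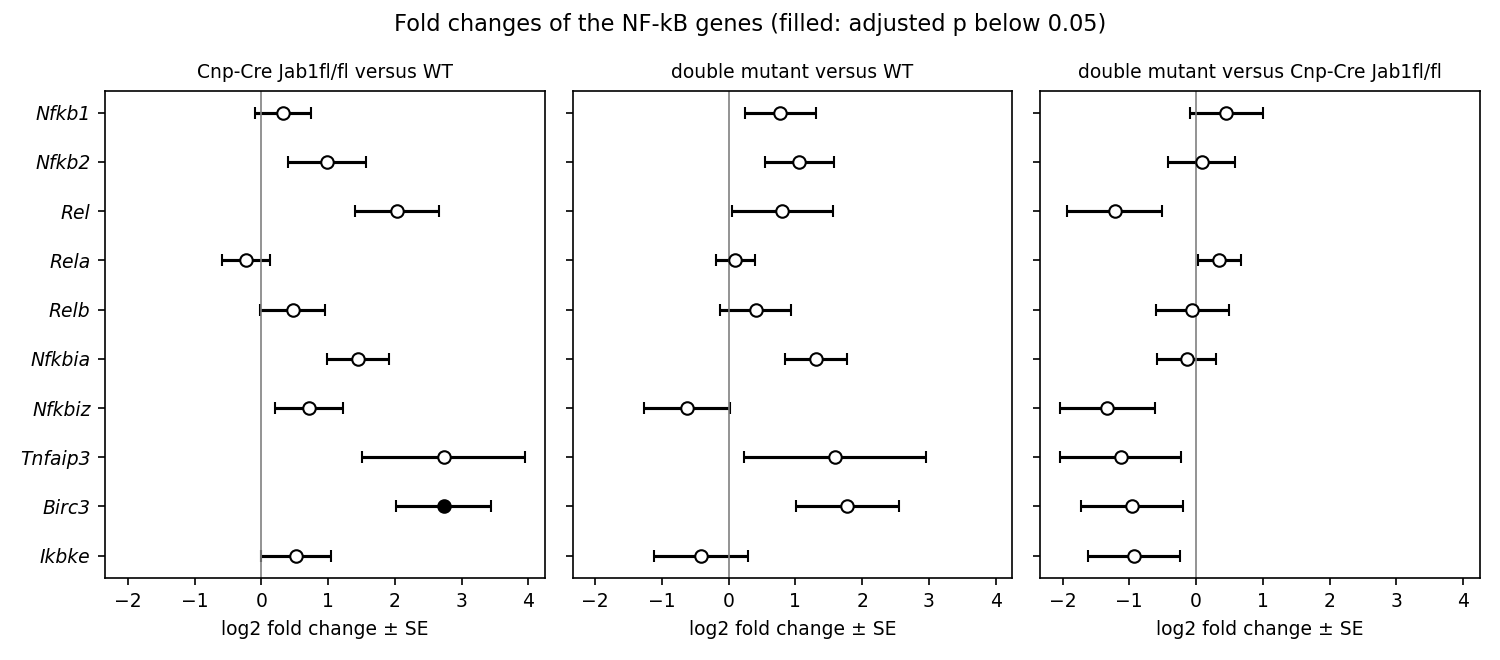
Points give the log2 fold change of each member and bars its SE, in each of the 3 comparisons, and a filled point marks an adjusted p below 0.05 by edgeR. Birc3 in Cnp-Cre Jab1fl/fl versus WT (2.73 ± 0.71) is the only filled point, and most points of double mutants versus Cnp-Cre Jab1fl/fl lie to the left of 0.

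Samples of a genotype differed more in some members than in others. The pooled SD of log2(CPM + 1) within genotypes was 1.08 for Tnfaip3 and 0.94 for Birc3, where the median gene had 0.66, and 0.44 for Rela and 0.51 for Nfkb2. Rela in double mutants was the most even, at 98.5, 113, 91.7 and 99.6 CPM. Per length, the ratio of Nfkbia to Rela, the inhibitor to its main partner, was 7.1, 1.77, 1.48 and 2.01 in WT, 7.16, 3.26, 12.3 and 16.4 in Cnp-Cre Jab1fl/fl, whereas double mutants had 3.9, 3.44, 10.4 and 7.35. WT replicate 1 had a ratio like that of mutant samples, and every other WT sample was below every mutant sample.

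Markers of other cell types also differed between the genotypes. Of the 20 microglial markers, such as Cx3cr1, P2ry12 and Csf1r, edgeR called 19 higher in Cnp-Cre Jab1fl/fl than in WT (5.19% of all genes). In double mutants edgeR called 0 of them higher (0.175% of all genes), and DESeq2 called 13 higher (4.94% of all genes in either direction). There all 20 were higher at an unadjusted edgeR p below 0.05, as compared with 7.82% of all genes. Endothelial markers summed to 348.6 to 726.5 CPM in WT, 718.7 to 5188 in double mutants and 778 to 5568 in Cnp-Cre Jab1fl/fl. Mural markers summed to 277.4 to 477.2, 293.9 to 1657 and 969.3 to 1719 CPM in the same order. In Cnp-Cre Jab1fl/fl edgeR called 6 of 10 endothelial and 4 of 8 mural markers higher (5.19% of all genes). For double mutants it called 0 of both lists (0.175%), and 9 and 3 were higher at an unadjusted p below 0.05 (7.82%). Among the mutants with Jab1 deleted alone, replicate 2 had the lowest sums of microglial and of endothelial markers, 1286 and 778 CPM, and the lowest level of Birc3, Rel, Nfkbia and Nfkb1. The same sample had the highest Ikbke, at 15.8 CPM, and was second to the highest for Rela, Relb and Nfkb2, while Tnfaip3 and Rela were lowest in replicate 3. Among double mutants, replicate 3 had the highest sum of microglial markers and the highest Birc3, Nfkbia, Nfkb1, Rel, Relb and Nfkbiz. It also had the lowest Rela, Nfkb2 and Ikbke, the last at 1.58 CPM as compared with 3.62 to 14 in the others. The part of these cell types in the levels of the members was not tested. Astrocyte markers summed to 5539 to 13350 CPM in WT, 4025 to 11120 in double mutants and 3529 to 8647 in Cnp-Cre Jab1fl/fl, and none of the 10 was called. Of 8 markers of neutrophils and monocytes, Elane was at 0 in every genotype. Their sum was at most 2.11 CPM in WT, 2.01 to 17.3 CPM in Cnp-Cre Jab1fl/fl and 2.34 to 132 CPM in double mutants, with the highest in replicate 3. Lymphocyte markers summed to at most 0.601 CPM in WT, 2.48 to 10.7 CPM in Cnp-Cre Jab1fl/fl and 0.555 to 10.7 CPM in double mutants, with Cd3e at 0 in all WT samples and Cd8a at 0 in all double mutants.

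**Figure D4:**
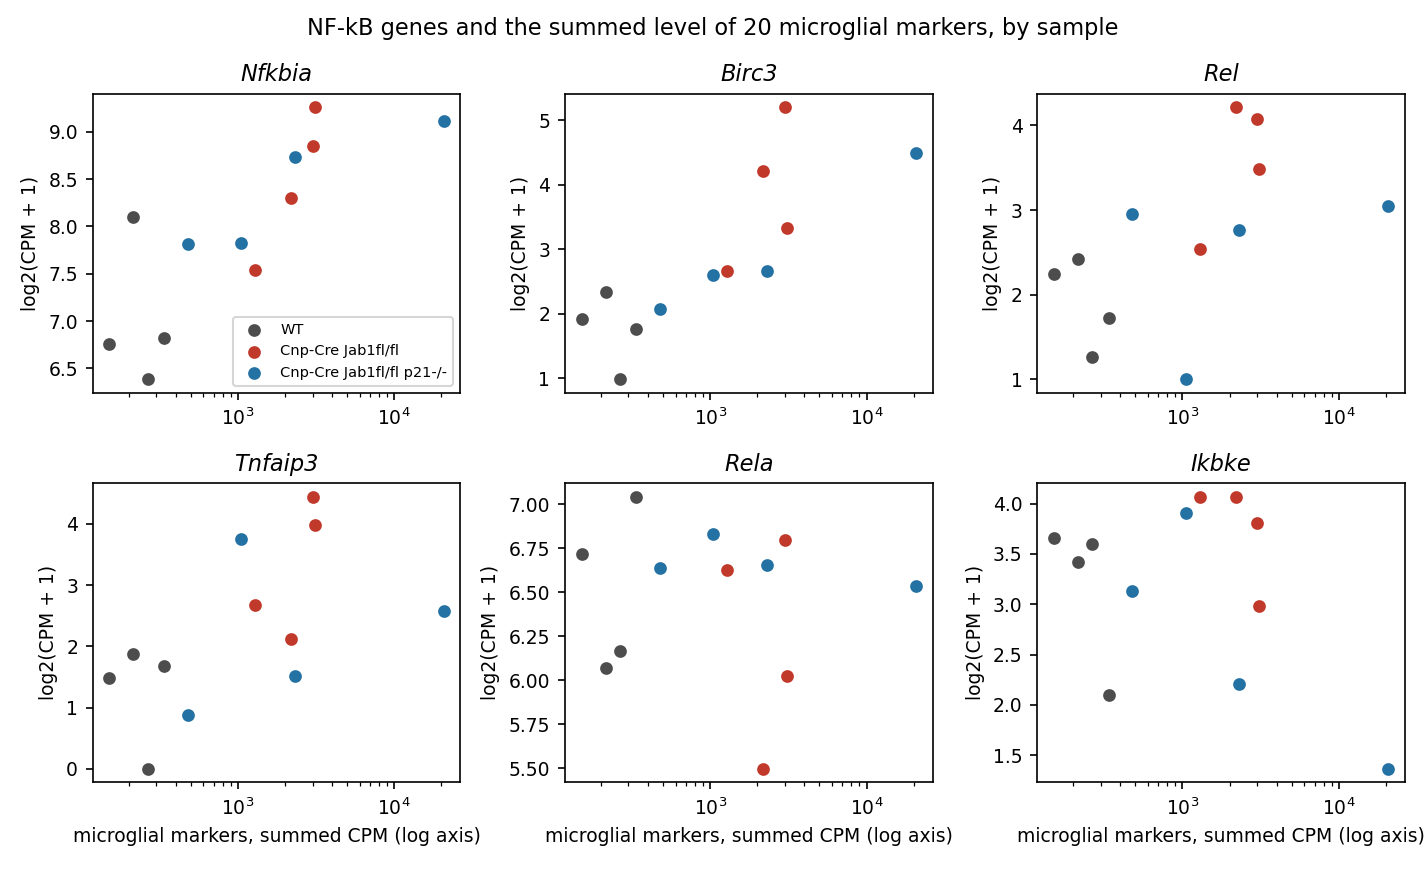
Each point is a sample, with the summed CPM of 20 microglial markers on a log axis and the level of a member as log2(CPM + 1). The WT samples lie at the left (150.4 to 337.2 CPM), double mutant replicate 3 at the far right (20670 CPM), and the highest level of Rela, 130.9 CPM on the linear scale, is in a WT sample.

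The pathway around the members was described by 43 further genes in 5 lists, all of which passed the filter. Between Cnp-Cre Jab1fl/fl and WT, 1 of 43 was called higher and 1 lower by edgeR, where 5.19% and 2.46% of all genes were, and the median log2 fold change was 0.24, where that of all genes was 0.02. At an unadjusted p below 0.05, 8 were higher and 6 lower, where 22.5% of all genes passed in either direction. Nfkbid, among those 8, passed the filter through the samples of Cnp-Cre Jab1fl/fl, in which it was high. In double mutants none of the 43 was called by edgeR, with 3 higher and 3 lower at an unadjusted p below 0.05, where 12.4% of all genes passed. There DESeq2 called 1, Tnfrsf1b, and 4.94% of all genes.

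Of 15 receptors and adaptors, 1 was called higher. Tnfrsf1b, which encodes TNF receptor 2, was 1.42, 1.58, 1.64 and 1.34 CPM in WT and 18.7, 13, 9.33 and 9.88 CPM in Cnp-Cre Jab1fl/fl, with a log2 fold change of 3.09 ± 0.55 (SE) and an adjusted p of 0.00838 by edgeR. In double mutants it was 8.79, 0.0238, 59.9 and 7.48 CPM, with the highest value again in replicate 3. Its call in Cnp-Cre Jab1fl/fl held when each of the 8 samples was left out in turn (adjusted p = 0.0106 to 0.0284) but was lost with all 12 samples in the edgeR fit (adjusted p = 0.148). Cd40, a receptor of antigen-presenting cells that signals to both branches, had a log2 fold change of 1.87 ± 0.63 in Cnp-Cre Jab1fl/fl and an adjusted p of 0.0998 by edgeR, and its samples did not overlap with WT. Tnfrsf1a, which encodes TNF receptor 1, had 0.16 ± 0.39.

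The kinases and the ligase upstream of the inhibitor showed no call. Of 9 kinase genes and their partners, 6 had a log2 fold change below 0 in Cnp-Cre Jab1fl/fl, and the smallest adjusted p-values by edgeR were 0.12 for Chuk, which encodes IKKα, at −0.74 ± 0.26 (SE), and 0.238 for Tab1, a partner of the kinase TAK1, at −0.77 ± 0.36. Chuk was 171.6 to 229.5 CPM in WT and 98.3 to 150.3 CPM in Cnp-Cre Jab1fl/fl, and the samples did not overlap. Of the 5 genes of the SCF ligase that acts on IκBα, 3 were above and 2 below 0, and Cul1, its cullin scaffold and a substrate of the COP9 signalosome, had −0.66 ± 0.29 with an adjusted p of 0.207, and Fbxw11, a substrate receptor, −0.74 ± 0.41 with 0.324, both by edgeR.

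Among 10 genes of ubiquitin editing and linear chains, Itch was called lower. Itch, a ligase that works in complex with A20, was 72, 142.2, 98.6 and 71.2 CPM in WT and 60, 21.9, 32.8 and 23.3 CPM in Cnp-Cre Jab1fl/fl, with a log2 fold change of −1.47 ± 0.39 (SE) and an adjusted p of 0.0431 by edgeR. All mutant samples lay below all WT samples, as for 7.26% of all genes. The call was kept without mutant replicate 1 and lost when any of the other 7 samples was left out, with adjusted p-values of 0.0205 to 0.108 over the 8 omissions, and it was also lost with all 12 samples in the edgeR fit (adjusted p = 0.103) and without the filter (adjusted p = 0.0573). Otud7b, a deubiquitinase of the noncanonical branch, had −1.03 ± 0.31 and an adjusted p of 0.065.

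All 4 further IκB genes had log2 fold changes above 0 in Cnp-Cre Jab1fl/fl, and none was called by edgeR on the 8 samples. Bcl3, a nuclear IκB that binds p50 and p52, was 0.0363, 0.582, 2.61 and 1.88 CPM in WT and 28.6, 7.55, 9.93 and 17.1 CPM in Cnp-Cre Jab1fl/fl. The samples did not overlap, and the log2 fold change was 3.63 ± 1.02 (SE) with an adjusted p of 0.0535 by edgeR. Bcl3 was called by edgeR with all 12 samples, by DESeq2 and by limma-voom. In double mutants Bcl3 was 12.4, 3.79, 16.6 and 5.08 CPM, also above every WT sample, with an adjusted p of 0.302. Nfkbid had 3.32 ± 1.36 and an adjusted p of 0.173 by edgeR in Cnp-Cre Jab1fl/fl. It reached 1 CPM in 1 WT sample, 4 samples of Cnp-Cre Jab1fl/fl and 1 double mutant. It thus passed the filter through the group in which it was high, and its values, also among the 4 above, are a description only.

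**Figure D5:**
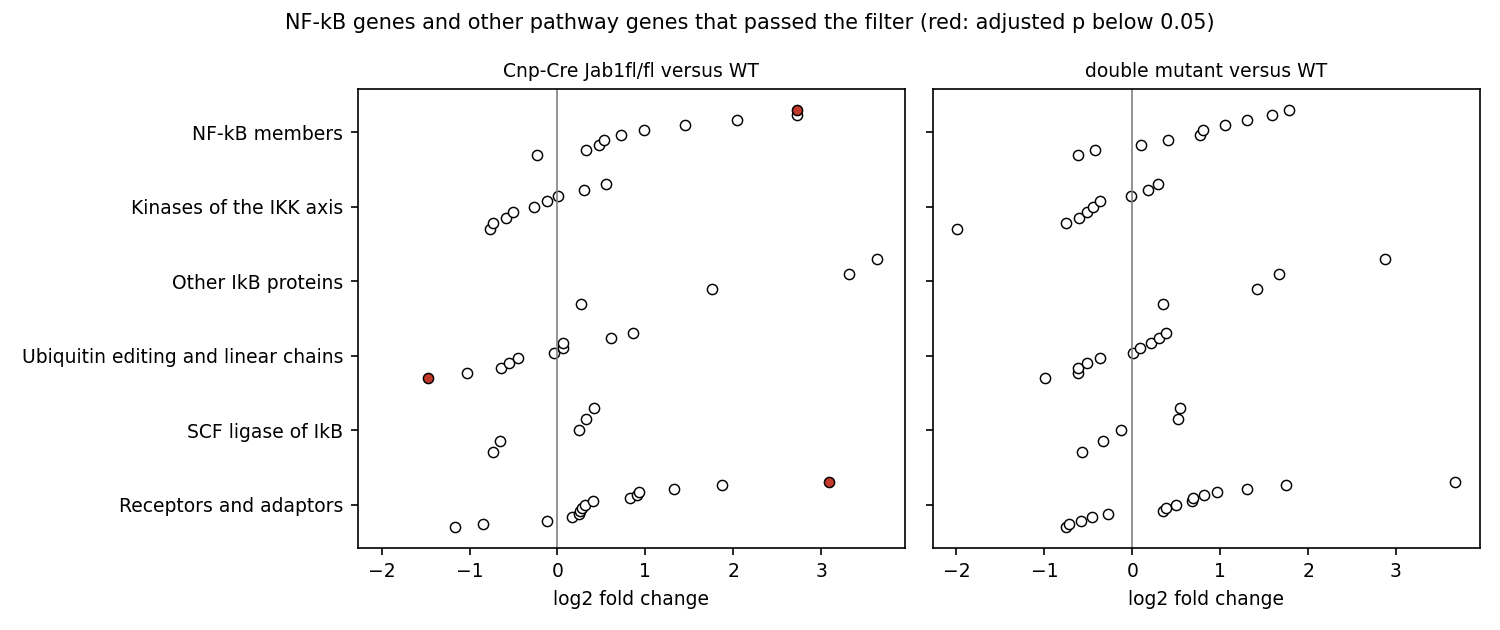
Each point is a gene of the NF-kB members or of 5 lists of pathway genes, placed by its log2 fold change in Cnp-Cre Jab1fl/fl versus WT (left) and double mutants versus WT (right), and red marks an adjusted p below 0.05 by edgeR. Birc3, Tnfrsf1b and Itch are red on the left, and no point is red on the right.

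Of 14 textbook target genes, 9 passed the filter. Of these, 5 (Tnf, Il1b, Ccl2, Ccl5 and Cxcl10) passed only through mutant samples, the groups in which they were high. The levels of these 5 are therefore given here as a description with no count of calls. Il1b, the cytokine IL-1β, had no count in any WT sample and was 19.2, 3.44, 15.4 and 18.7 CPM in Cnp-Cre Jab1fl/fl, at least 522-fold higher when each WT library is set to a floor of 3 counts. In double mutants it was 0.502, 0.0158, 8.02 and 0.136 CPM. Ccl2, a chemokine for monocytes, also had no count in WT and was 1.15, 6.27, 5.2 and 0.0806 CPM in Cnp-Cre Jab1fl/fl and 2.18, 2.16, 13.5 and 4.24 CPM in double mutants. These means were at least 117-fold and 203-fold higher than the same floor. Both mutant genotypes thus had samples with little of one or both genes. Cxcl10 was 36.9, 18, 77.2 and 60.3 CPM in Cnp-Cre Jab1fl/fl, 3.29, 29.5, 34.5 and 9.85 CPM in double mutants and 0.414 CPM in WT replicate 3, with no count in the other WT samples.

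The 4 targets that also reached 1 CPM in a WT sample were not called by edgeR in either mutant genotype. Among these, Icam1 did so in only 1 of 4 WT samples, with 2 at a count of 0, and needed mutant samples to pass. In Cnp-Cre Jab1fl/fl, Icam1, an adhesion molecule, had a log2 fold change of 2.53 ± 1.67 (SE) and an adjusted p of 0.419, Tnfaip2 had 1.55 ± 0.68 and 0.204, and Vcam1 and Sod2 had −0.07 ± 0.32 and 0.13 ± 0.29, by edgeR. Tnfaip2 was the one with an unadjusted p below 0.05, and DESeq2 called none of the 4. Il6, Cxcl1, Csf2, Nos2 and Ptgs2 did not pass the filter. Between double mutants and Cnp-Cre Jab1fl/fl, none of the 43 pathway genes was called by edgeR or DESeq2, and 3 had an unadjusted p below 0.05, Map3k7 and Ripk1 with −0.75 ± 0.31 and −0.97 ± 0.38 on the log2 scale and Tnfrsf1a with 1.15 ± 0.51.

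The genes with the pattern most like that of each member were sought by Pearson's r of log2(CPM + 1) over the 12 samples among the 10447 genes whose mean level reached 10 CPM. All 12 samples enter every r, which therefore holds the difference between genotypes and the depth of the libraries as well, and the r of the deviations from the genotype means is given beside it, with no test of either. Birc3 was most like Plek (r = 0.921, deviations 0.84), which encodes pleckstrin of platelets and leukocytes, and Clint1 (0.911, 0.815). Nfkbia was most like Cacna1e (0.952, 0.905) and Tmem252 (0.942, 0.883), Rel was most like Rab11fip5 (0.927, 0.848) and Smap2 (0.919, 0.85), and Tnfaip3 was most like Epb41 (0.918, 0.858) and Arhgef7 (0.89, 0.819). Rela was most like Hgs (0.926, 0.915) and Raly (0.918, 0.92), and Ikbke was most like Senp3 (0.947, 0.93) and Ip6k2 (0.918, 0.963). For Nfkb1 these were Col8a1 (0.896, 0.916) and Pacs1 (0.862, 0.851), for Nfkb2 1810043G02Rik (0.913, 0.824) and Kti12 (0.893, 0.776), for Relb Foxs1 (0.843, 0.917) and Taf10 (0.822, 0.804), and for Nfkbiz Kpna4 (0.882, 0.886) and Btbd7 (0.851, 0.76). Among the members themselves, the pair most alike by deviations was Nfkbia with Birc3 (r = 0.799, deviations 0.647).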

How the data were processed

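Gene expression was profiled by RNA-Seq in O1+ CD45- cells from 12 samples, 4 per genotype, with genotype and replicate number taken from the labels. The authors made SMART-Seq v4 libraries, trimmed reads (Trimmomatic 0.32), mapped them to GRCm38 (STAR 2.5.3a) and assigned them to genes of the basic GENCODE set (featureCounts). Raw counts for each gene symbol were deposited, with no normalization. The strand setting and the treatment of reads with several matches are not given in the sources used here.

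CPM values were computed with TMM factors from all 12 samples. Genes that reached 1 CPM in 4 or more samples were tested with edgeR 4.0.16 (R 4.3.3, quasi-likelihood test) on the 8 samples compared, with Benjamini-Hochberg adjustment over all 17716 genes and a threshold of 0.05. DESeq2 1.42.0, limma 3.58.1 (voom with sample quality weights), other normalizations, no filter, all 12 samples, the replicate number as a block and each sample left out were alternatives. SE is the log2 fold change divided by the root of the F statistic. Depth was 61485556 to 153495112 counts, floors are 3 counts per library, and they cover counting error only. Nothing in the labels says which mice shared a litter or a day, so p-values measure the spread between pooled samples.

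The members, gene lists, marker lists and tests were chosen with earlier results of these data known. Genes named beyond the 10 members are those of the lists that were called, the 2 with the smallest adjusted p per list, the 2 most like each member, and examples of markers, and some others (Tnfrsf1a, Icam1, Tnfaip2, Vcam1, Sod2, the target genes that did not pass the filter, and those past an unadjusted p of 0.05 in the last comparison) were named after their values were seen. Positions, exon lengths and overlaps came from GENCODE M21 on GRCm38, and promoters from RefSeq on GRCm38.p6. Each test was tried on counts simulated for Cnp-Cre Jab1fl/fl versus WT, where edgeR and limma-voom kept the share of false calls below the threshold and DESeq2 exceeded it. That was 1 simulation with 200 changed genes, drawn with the spread that edgeR estimated for each gene, a setting that may favour edgeR. Samples with the same replicate number did not deviate together (r of −0.188 to 0.0833 across genes, all pairs), and no samples were duplicates of each other. No sample was left out of the main test. A marker gene each of the oligodendrocyte and lymphocyte lists is not reported here and was left out of their sums.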

Additional observations from a re-analysis of the deposited data

Results flagged for a closer look

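Each of the 10 members was checked in each of the 3 genotypes for a sample that lay far from the other 3, and 2 of 30 groups were flagged, where chance flags about 1 in 20 groups. Nfkbia in WT was flagged for replicate 1, with 273.2 CPM as compared with 112.3 CPM in the nearest sample and 82.6 CPM in the lowest. Birc3 in double mutants was flagged for replicate 3, with 21.37 CPM as compared with 5.34 CPM in the nearest sample. The same library had 20670 CPM of microglial markers, and the part of these in Birc3 was not tested.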

How the results depend on the processing

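In Cnp-Cre Jab1fl/fl versus WT the number of members called, 1 by edgeR, was 3 with DESeq2 on 8 samples, on 12 samples and with limma-voom, and 0 without the filter, with edgeR on 12 samples and with the replicate block, and 0 to 3 with a sample left out. Birc3 had log2 fold changes of 2.61, 2.73 and 2.91 (adjusted p = 0.0746, 0.058 and 0.146) in those last 3 fits. Rel had 2.03, 2.04 and 2.18 and Nfkbia 1.45, 1.45 and 1.47 in the first 3, where both passed. Over the omissions the log2 fold change was 2.06 to 3.04 for Birc3, 1.8 to 2.29 for Rel and 1.14 to 1.97 for Nfkbia. Of the 43 pathway genes, edgeR called 2, and DESeq2 called 8 on 8 samples and 5 on 12. The 8 include Nfkbid, which passed the filter through the samples of Cnp-Cre Jab1fl/fl, in which it was high. These DESeq2 fits called 2689 of 17558 genes on 8 samples and 2314 genes on 12. Without the filter 1 was called (Tnfrsf1b), where 2.5% of all genes were. With edgeR on 12 samples and with the replicate block 1 was called, where these fits called 941 and 660 of all genes. In both cases it was Bcl3 in place of Tnfrsf1b and Itch (adjusted p = 0.201 and 0.459 with the block in edgeR). Over the omissions 1 to 3 were called. Tnfaip3 had a log2 fold change of 1.93 with the replicate block and 5.06 by limma-voom. In a fit with the replicate block, only samples whose number occurs in both genotypes inform the difference, here numbers 1 and 3. Such a fit is therefore weaker than the main test. Calls of the target genes are not counted for this comparison, since each one called by edgeR passed the filter only through mutant samples.

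In double mutants versus WT no alternative called a member. DESeq2 called 1 pathway gene on 8 samples and 2 on 12, where it called 862 and 923 of all genes. Of the targets, edgeR called 1, Ccl2, which passed the filter only through mutant samples, the groups in which it was high. DESeq2 called 2 and 4 targets on 8 and 12 samples, and edgeR on 12 samples called 2. Without the filter, by limma-voom and with the replicate block 0 were called, and 0 to 1 over the omissions. Because of that filter, these target counts only describe the settings, and no change of the targets is concluded from them. The sign turned with the replicate block for Rela (−0.0121) and Tnfaip3 (−0.167), and for Rela over the omissions (−0.0316 to 0.334). In double mutants versus Cnp-Cre Jab1fl/fl no alternative called a gene of these lists. The sign turned with the replicate block for Nfkb2 (−0.00214) and Nfkbia (0.0286), and over the omissions, which gave −0.0828 to 0.513 for Nfkb2, −0.41 to 0.188 for Nfkbia and −0.315 to 0.22 for Relb. The cause of these differences was not tested. The replicate numbers were not taken as pairs, since all correlations were below 0.1 and 1 of 8 samples was most like its own number. The other alternatives kept the side of the threshold of each of these counts and members. Levels per length without TMM factors stayed within 1 SD for all 30 values, while Birc3 and Ikbke swapped places in both mutant genotypes and Relb and Nfkb1 did in double mutants.

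The number of all genes called moved as well. In Cnp-Cre Jab1fl/fl versus WT it was 1354 by edgeR, 2689 and 2314 by DESeq2 on 8 and 12 samples and 660 with the replicate block, and 678 without WT replicate 5. In double mutants versus WT it was 34 by edgeR, 862 and 923 by DESeq2 on 8 and 12 samples, 164 by edgeR on 12 samples, 21 without the filter and 1 with the replicate block, and 274 without double mutant replicate 1. In the last comparison it was 0 by edgeR and 87 and 152 by DESeq2.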
